A study of Hydra vulgaris with 22 samples.

Results

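Of the 44306 transcript stems measured in Hydra vulgaris, 8 were low in the epidermal epithelial stem cells of the body column and held elsewhere, that is, in both gastrodermal groups and in both gates of interstitial stem cells. A stem here is a set of assembled contigs that share an identifier up to the final isoform number, and its counts are the sum over those contigs. A stem was taken when its group means were at least 10 CPM (counts scaled to the library's total) in all 4 non-epidermal sorted groups, and when the smallest of those means was at least 3 times the larger epidermal mean plus 0.5 CPM. The rule allowed up to 150 stems and 8 met it, out of 4311 stems that reached 10 CPM in the 4 other groups. They are c24380_g1, c24910_g1, c6568_g1, c21099_g1, c44746_g1, c8137_g1, c23418_g1 and c22270_g1, in order of falling ratio. Because the epidermal levels chose them, their low level in the epidermis is a description and was not tested.

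The body wall of Hydra is made of an outer epithelial layer, the epidermis, and an inner one, the gastrodermis. Each layer is renewed by its own epithelial stem cells, which divide in the body column and are at the same time working epitheliomuscular cells. A separate lineage, the interstitial stem cells, sits mainly between the epidermal cells and gives rise to nerve cells, stinging cells, gland cells and germ cells.

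The study sequenced polyadenylated RNA from the central body column of strain AEP, in animals fed 3 times per week and untreated, with head and foot regions removed. It held 22 libraries, of which 20 came from cells sorted for eGFP and 2 from unsorted tissue. The epithelial lines carried eGFP under an actin promoter and the interstitial line carried it under the cnnos1 promoter, so each population is defined by a transgene line and a fluorescence gate. The eESC_3d group held 3 epidermal libraries after 3 days without food, and eESC_10d held 4 after 10 days. Gastrodermal cells gave gESC_3d with 3 libraries and gESC_10d with 3, after the same 3 and 10 days. The high-GFP gate of the cnnos1 line gave ISC_high, 4 libraries after 2, 3, 3 and 5 days, and the medium-GFP gate gave ISC_medium, 3 libraries after 5, 3 and 3 days. Each unsorted library, 1 of an actin line and 1 of the cnnos1 line, was taken after 10 days. No label states whether libraries of a group came from separate cultures, so p-values measure only the spread between these samples. In bulk libraries of sorted cells, fewer cells of a kind and less RNA per cell cannot be told apart.

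Library totals ran from 13971099 to 31723680 counts and fell into separate depth classes. Among the sorted libraries, 8 held 17159718 to 20327106 counts, namely all of eESC_3d and ISC_medium and gESC_3d replicates A and B. The other 12, with 25195891 counts or more, were gESC_3d replicate C, all of ISC_high and both 10-day groups. One epidermal library stood apart. For the 150 stems of highest ratio that were high only in gastrodermal cells, meaning at least 10 CPM there and at least 3 times every other sorted group, eESC_10d replicate C held 8.35% of the level in those cells, against 0.475% to 1.11% in the other 6 epidermal libraries, so the epidermal changes are given with and without it. None of the 44306 stems or 61501 contigs matched any name among 28925 annotated genes of the reference table, so the 8 stems carry no gene name or function here, and their levels cannot be compared per length with each other.

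The word "missing" does not describe these stems. Every stem had counts in every epidermal library, the fewest being 3 counts of c24380_g1 in eESC_3d replicate B. The epidermal mean was above 1 CPM for 6 of 8 stems after 3 days and for 8 of 8 after 10 days. As a share of the gastrodermal mean at the same day, the epidermal level lay between 3.09% and 20.0% after 3 days and between 7.23% and 24.2% after 10 days. All 8 kept their lowest other sorted library above their highest epidermal library, by 1.93-fold for c22270_g1 to 5.85-fold for c24380_g1. The rule used group means of these same libraries, which favours such a gap without fixing it for single libraries. The gap is a description and was not tested. Summed over the 8 stems, the level was 34.2 ± 7.73 CPM (SD, n = 3) in eESC_3d and 70.6 ± 10.8 (n = 4) in eESC_10d, or 65.6 ± 4.48 (n = 3) without its replicate C. The same sum was 394 ± 51.9 (n = 3) in gESC_3d, 400 ± 29.3 (n = 3) in gESC_10d, 385 ± 33.3 (n = 4) in ISC_high and 319 ± 11.5 (n = 3) in ISC_medium.

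**Figure D1:**
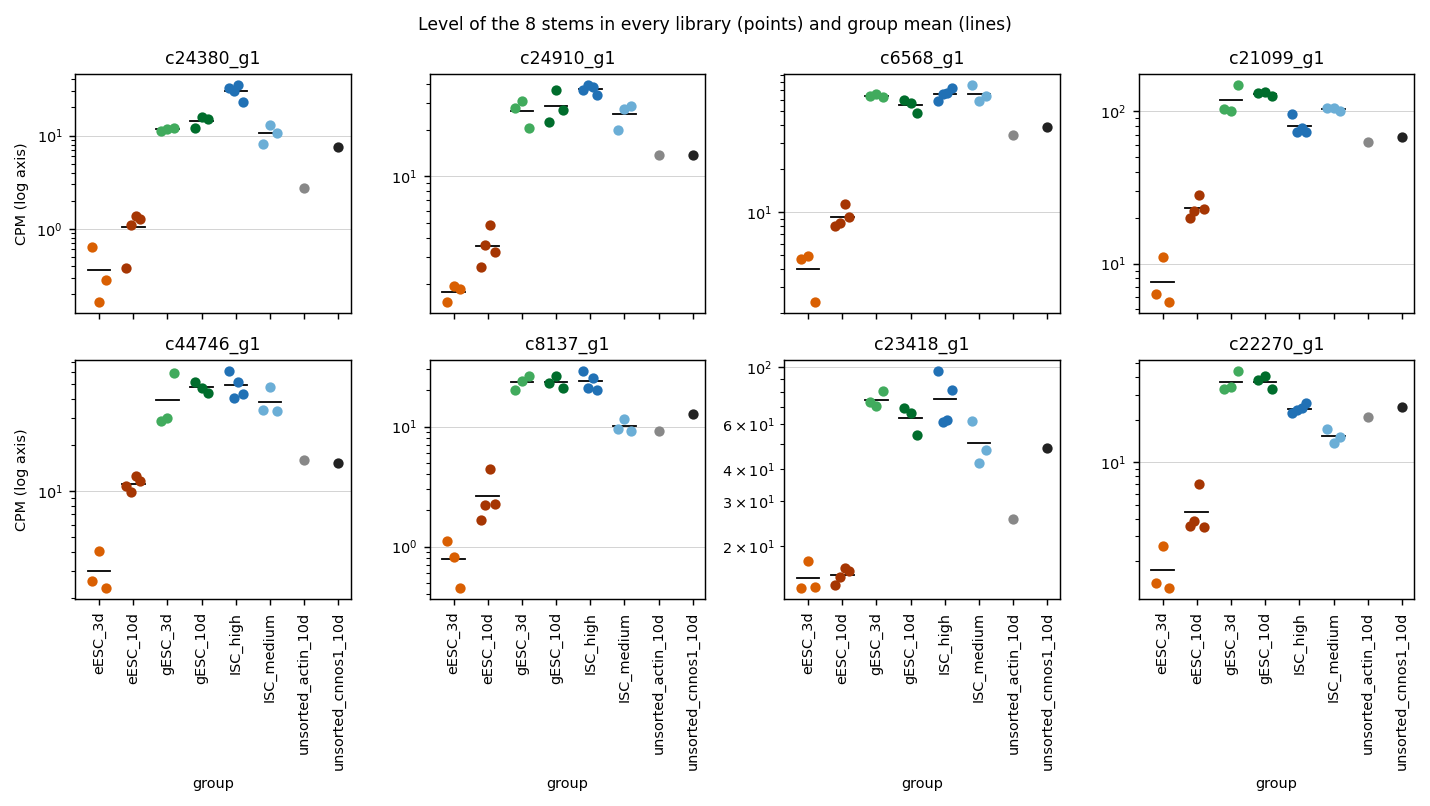
CPM of each of the 8 stems in every library, on a log axis with 1 panel per stem; points are libraries, black lines are group means, and groups are the 6 sorted groups and the 2 unsorted libraries. In every panel the 7 epidermal points lie below the 13 other sorted points, with the unsorted libraries between the epidermal and the gESC_10d points.

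The stem with the highest ratio, 6.85, was c24380_g1, which holds 4 contigs. Its level was 0.641, 0.162 and 0.281 CPM in eESC_3d A, B and C and 0.379, 1.10, 1.38 and 1.28 CPM in eESC_10d A to D. In gESC_3d it was 11.1, 11.9 and 12.1 CPM and in gESC_10d 12.0, 16.0 and 15.0 CPM. In ISC_high it reached 32.1, 30.2, 34.6 and 23.1 CPM, and in ISC_medium 8.07, 12.8 and 10.7 CPM. The high-GFP gate thus stood above every other library, the gastrodermal groups and the medium gate overlapped, and the epidermal libraries lay far below them all. From eESC_3d to gESC_3d the means differed 32.4-fold, the largest such step among the 8 stems, and from eESC_3d to ISC_high 83.1-fold.

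Single-contig stem c24910_g1 had a ratio of 6.26. It measured 1.52, 1.95 and 1.85 CPM in eESC_3d and 2.58, 3.58, 4.83 and 3.22 CPM in eESC_10d. The gastrodermal libraries held 28.0, 30.9 and 20.7 CPM after 3 days and 22.5, 36.6 and 26.9 CPM after 10 days, and the interstitial libraries 36.4, 39.2, 38.5 and 34.1 CPM in the high gate and 20.0, 27.4 and 28.7 CPM in the medium gate. The gastrodermal groups overlapped, and ISC_high was above ISC_medium without overlap on this scale.

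The most even of the stems outside the epidermis was c6568_g1, also a single contig, with a ratio of 5.68. Its gastrodermal levels were 63.8, 65.8 and 63.4 CPM after 3 days and 59.7, 57.3 and 48.7 CPM after 10 days, and its interstitial levels were 58.7, 65.8, 67.5 and 73.0 CPM in the high gate and 76.0, 58.9 and 63.8 CPM in the medium gate. In the epidermis it stood at 4.72, 4.93 and 2.36 CPM after 3 days and 7.97, 8.43, 11.3 and 9.22 CPM after 10 days. Group means of the 4 non-epidermal groups ranged only from 55.2 to 66.2 CPM, and their libraries overlapped apart from the gastrodermal pair, where each 10-day library was below each 3-day library.

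Stem c21099_g1, with 2 contigs, had a ratio of 3.37. It measured 6.29, 11.0 and 5.56 CPM in eESC_3d and 20.0, 22.0, 28.1 and 22.9 CPM in eESC_10d. Gastrodermal libraries held 104, 101 and 148 CPM after 3 days and 132, 134 and 125 CPM after 10 days, while ISC_high held 96.1, 72.7, 78.0 and 73.1 CPM and ISC_medium 105, 105 and 99.9 CPM. Here the gastrodermal cells were highest and ISC_high had the lowest mean of the non-epidermal groups, whereas in c24380_g1 ISC_high had the highest. Over the 8 stems the highest mean was in an interstitial group for 6 and in a gastrodermal group for 2.

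Stem c44746_g1, a single contig with a ratio of 3.28, had the widest spread relative to the mean in any non-epidermal group. In gESC_3d it measured 28.6, 30.1 and 59.1 CPM, with replicate C well above the others, and in gESC_10d 51.7, 47.2 and 43.7 CPM. ISC_high held 60.8, 40.4, 51.3 and 43.2 CPM and ISC_medium 33.8, 47.5 and 33.2 CPM, so these 4 groups overlapped. The epidermal levels of 2.56, 4.06 and 2.30 CPM after 3 days and 10.7, 9.77, 12.5 and 11.5 CPM after 10 days did not overlap with each other.

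In c8137_g1 and c22270_g1, both single contigs with ratios of 3.22 and 3.07, the medium gate was below every other non-epidermal library. For c8137_g1 ISC_medium held 9.54, 11.6 and 9.23 CPM, less than every library of ISC_high, with 29.1, 20.9, 25.4 and 20.3 CPM, of gESC_3d, with 20.4, 23.9 and 26.4 CPM, and of gESC_10d, with 22.9, 26.4 and 21.0 CPM. Its epidermal levels were 1.11, 0.812 and 0.449 CPM after 3 days and 1.67, 2.21, 4.43 and 2.26 CPM after 10 days. For c22270_g1 the groups formed an order on this scale, without overlap between gastrodermal, high-gate and medium-gate libraries. Gastrodermal libraries held 32.8, 33.8 and 44.0 CPM in gESC_3d and 38.0, 40.5 and 32.7 CPM in gESC_10d. Then came 22.3, 23.4, 24.0 and 26.1 CPM in ISC_high and 17.1, 13.6 and 15.0 CPM in ISC_medium. Below these came the epidermal libraries, with 1.40, 2.54 and 1.29 CPM after 3 days and 3.53, 3.82, 7.04 and 3.48 CPM after 10 days. The gastrodermal groups overlapped with each other in both stems. These orders are in CPM, which rests on library totals. In the test between the gates given below, the step of c22270_g1 was not called (log2 fold change -0.26, edgeR adjusted p = 0.43).

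Stem c23418_g1, with 3 contigs, had a ratio of 3.19. Its epidermal libraries held 13.6, 17.4 and 13.8 CPM after 3 days and 14.0, 15.1, 16.4 and 15.9 CPM after 10 days, and these groups overlapped. It measured 72.9, 70.6 and 80.8 CPM in gESC_3d, 69.2, 66.4 and 54.5 CPM in gESC_10d, 96.6, 61.0, 62.1 and 81.2 CPM in ISC_high and 61.7, 42.3 and 47.5 CPM in ISC_medium. The step from eESC_3d to gESC_3d was 5.00-fold, the smallest among the 8 stems. Just outside the limits lay c13003_g1, with a ratio of 2.94 (47.9 against 15.8 CPM), c8095_g1, with a ratio of 2.85 (102 against 35.2 CPM), and, short of the level of 10 CPM, c4593_g1, with 8.98 CPM and a ratio of 3.06.

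With the epidermal and gastrodermal groups exchanged, the same rule found 46 stems low only in gastrodermal cells, with ratios up to 43.6. The same form of rule found 479 stems low only in the interstitial groups. These counts describe the series and were not tested, and they move with the scaling: with TMM-scaled CPM (trimmed mean of M-values) 10 stems were low only in the epidermis and 41 only in the gastrodermis, and with median-of-ratios scaling 14 and 37. The choice of the 8 moved too. With TMM-scaled CPM 7 of them were still taken, c21099_g1 being lost, and with group medians in place of means 5 were.

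The comparison of 10 with 3 days without food asks whether the epidermal level of these stems moved with starvation. The rule limited the larger of the epidermal means and did not use the difference between them, but it read the same libraries, so the count of stems called is a description that supports nothing beyond the single tests. The same holds for the comparisons between other groups, where the rule set a floor for each mean and used the smallest of them in the ratio. Of the 8 stems, 7 rose in the epidermal cells by 10 days and none fell (edgeR quasi-likelihood test on stem counts with TMM scaling, all 18288 stems tested, Benjamini-Hochberg adjusted p under 0.05). Over all stems tested 12.3% were called in this comparison and 6.52% were called higher. Among the stems of at least 10 CPM in the 4 other groups, as all 8 are, these shares were 19.2% and 7.19%. The median log2 fold change was 1.25 for the 8 stems and 0.16 for all stems. In CPM every 10-day library was above every 3-day library, except for c24380_g1 and c23418_g1. How often this holds among all stems was not counted, so it only describes the single stems.

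The largest epidermal rise was that of c44746_g1, with a log2 fold change of 1.73 (SE 0.240, edgeR adjusted p = 0.00058). It was followed by c8137_g1 at 1.55 (SE 0.336, edgeR adjusted p = 0.0076) and c21099_g1 at 1.45 (SE 0.186, edgeR adjusted p = 0.00035). Smaller rises were called for c24380_g1 at 1.31 (SE 0.422, edgeR adjusted p = 0.049), c22270_g1 at 1.19 (SE 0.262, edgeR adjusted p = 0.0083), c6568_g1 at 1.01 (SE 0.230, edgeR adjusted p = 0.0096) and c24910_g1 at 0.82 (SE 0.232, edgeR adjusted p = 0.027). The call of c24380_g1 was lost in 10 of the 14 alternatives tried, with an adjusted p of 0.061 under median-of-ratios factors, 0.066 with no filter and 0.14 with only the groups compared, each of which left 6 calls. The remaining stem, c23418_g1, gave -0.14 (SE 0.183, edgeR adjusted p = 0.64). After the rise the epidermal means were still below those of every other sorted group, as the rule requires.

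Several measured values moved with this comparison. All eESC_3d libraries were in the lower depth class and all eESC_10d libraries in the deeper one, so depth and days cannot be told apart within the epidermis; with depth class as a term, which rests on gESC_3d replicate C alone, 0 of the 8 stems were called in edgeR, while the 7 kept log2 fold changes of 1.01 to 1.61. Epidermal replicate C of 10 days, which held the gastrodermal stems, was also the highest eESC_10d library for 8 of 8 stems. How many of all stems were highest in that library was not counted, so this count has nothing to be set against. Without replicate C 5 stems were called. Then c24380_g1 gave 1.14 (edgeR adjusted p = 0.11) and c24910_g1 0.63 (edgeR adjusted p = 0.086). The other 5 gave 1.66 for c44746_g1, 1.33 for c21099_g1, 1.17 for c8137_g1, 0.89 for c6568_g1 and 0.87 for c22270_g1, all still called. Without eESC_3d replicate C 2 stems were called, and without replicate A or B of that group 5. The 78 stems that by the same limits were high only in interstitial cells also had a higher level in the 10-day epidermal libraries, 17.7% to 22.0% of their interstitial level against 10.2% to 14.8% after 3 days. Their sum was 1771 ± 329 CPM (SD, n = 3) in eESC_3d and 2745 ± 249 (n = 4) in eESC_10d. In gastrodermal cells the same sum was 1517 ± 36.2 CPM (n = 3) in gESC_3d and 1376 ± 235 (n = 3) in gESC_10d. For the 4 of these 78 stems with a ratio of at least 10, a cut chosen after the values were seen, the level was 0.735% to 1.65% after 3 days and 1.18% to 4.86% after 10 days, highest in replicate C. For the 8 stems themselves the summed level was 7.45% to 11.4% after 3 days and 16.2% to 22.9% after 10 days. What part other cells in the sort had in the rise was not tested.

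**Figure D2:**
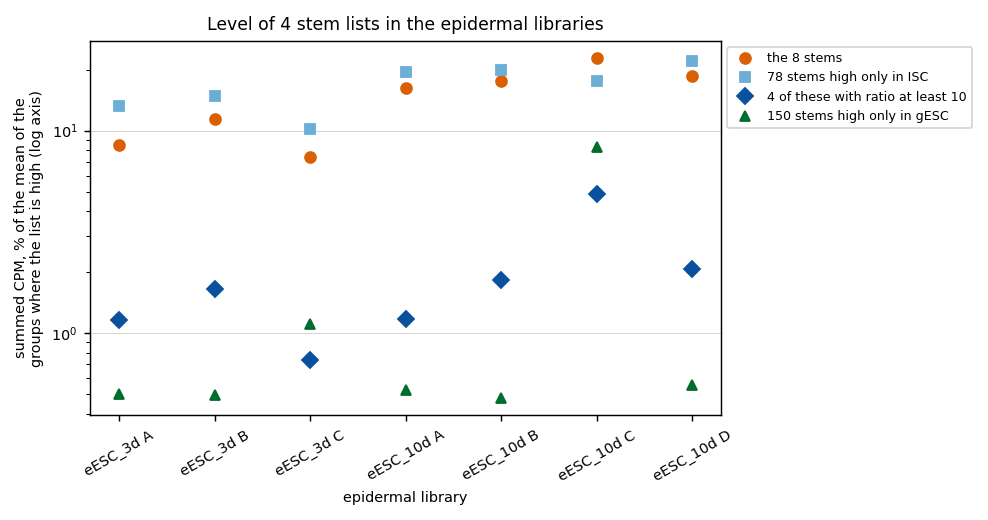
Summed CPM of 4 lists of stems in each of the 7 epidermal libraries, as a percentage of the mean in the groups where each list is high, on a log axis. The 150 gastrodermal stems stand at 0.475% to 1.11% except in eESC_10d C, at 8.35%, while the 8 stems and the 78 interstitial stems are higher in all 4 of the 10-day libraries than in the 3 of 3 days.

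In gastrodermal cells, none of the 8 stems passed the test between 10 and 3 days (edgeR, adjusted p), in a comparison in which 0.0656% of all stems tested, and 0.116% of those of at least 10 CPM, were called in either direction. DESeq2 also called 0 of the 8, and 1 stem had an unadjusted p under 0.05 in edgeR. That stem was c23418_g1, with a log2 fold change of -0.44 (SE 0.192, edgeR adjusted p = 0.31), and c6568_g1 gave a like value of -0.43 (edgeR adjusted p = 0.41). In both, each 10-day library was below each 3-day library in CPM, and how often this holds among all stems was not counted. The other 6 lay between -0.22 and 0.11, and the median was -0.17 for the 8 stems and 0.04 for all. On simulated counts at this design edgeR called 10.5% of stems changed 2-fold and 87.9% of stems changed 4-fold. The changed stems were drawn from all that passed the filter, with 1 common coefficient of variation of 0.294. The 8 stems had SEs of 0.185 to 0.300 in this comparison, so these rates may not hold for them. A missing call does not show that a level stayed the same.

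The difference between the starvation changes in the layers was tested as an interaction. It was called for 1 of the 8 stems, against 0.082% of all stems tested in either direction and 0.0656% called lower, or 0.116% of those of at least 10 CPM, each of them lower. This was c21099_g1, where the gastrodermal change minus the epidermal change was -1.49 on the log2 scale (SE 0.261, edgeR adjusted p = 0.025). It came from 7.61 to 23.3 CPM in the epidermal means and 117 to 130 CPM in the gastrodermal means. All 8 estimates were below 0, with a median of -1.42 against -0.08 for all stems. The 8 estimates share the libraries whose values chose the stems, so their common sign is a description and was not tested. The largest were -1.77 for c8137_g1 (edgeR adjusted p = 0.2) and -1.63 for c44746_g1 (edgeR adjusted p = 0.083), neither called. Without eESC_10d replicate C these were -1.38 and -1.55, and c21099_g1 gave -1.37 (edgeR adjusted p = 0.027). DESeq2 called 4 of the 8 stems. The call of c21099_g1 rests on the full set of libraries: it was kept without eESC_3d replicate B, eESC_10d replicate B or eESC_10d replicate C and lost without any other single library of these 13, with estimates of -1.77 to -1.30. Over the 20 alternatives tried the call was lost in 15, and its adjusted p ran from 0.00014 to 0.26.

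**Figure D3:**
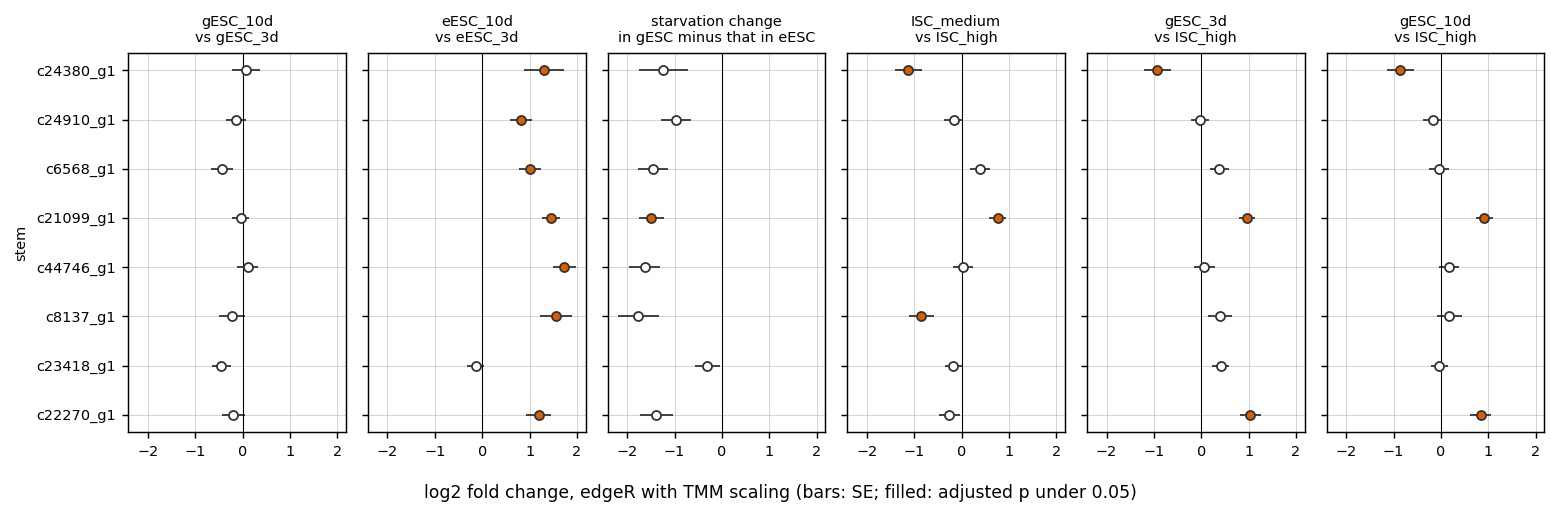
Log2 fold changes of the 8 stems in the 6 comparisons tested with edgeR; points are estimates, bars their standard errors, and filled points have an adjusted p under 0.05. In the epidermal starvation panel 7 points are filled at 0.82 to 1.73, in the gastrodermal panel none is, and the 3 panels between populations hold 3 filled points each.

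The gates of the cnnos1 line were compared next. Between ISC_medium and ISC_high 3 of the 8 stems passed the test, in a comparison in which 34.5% of all stems tested were called, 15.1% higher and 19.4% lower. Among the stems of at least 10 CPM the share was 48.9%, with 23.5% higher and 25.5% lower, so the count for the 8 stems is near the background. Lower in the medium gate were c24380_g1, with a log2 fold change of -1.13 (SE 0.288, edgeR adjusted p = 0.0048), and c8137_g1, with -0.85 (SE 0.268, edgeR adjusted p = 0.019). Higher there was c21099_g1, with 0.76 (SE 0.172, edgeR adjusted p = 0.0019). In CPM the libraries of both gates were apart for these 3 stems. They were also apart for c24910_g1 and c22270_g1, which gave -0.16 (edgeR adjusted p = 0.59) and -0.26 (edgeR adjusted p = 0.43). The share of all stems with gates apart was not counted, so this only describes the single stems. The median was -0.17 for the 8 stems and -0.04 for all.

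The calls between the gates moved with the scaling. Scaled by library size alone, the median of all stems was -0.43; 5 of the 8 stems were then called, all lower in the medium gate, and c21099_g1 gave 0.37 (edgeR adjusted p = 0.15). The gates also differ in depth class, medium being shallower throughout, so gate and depth cannot be told apart, and with depth class as a term 0 stems were called. The estimates were then -1.34 for c24380_g1, 1.01 for c21099_g1 and -0.88 for c8137_g1, with adjusted p of 0.15, 0.055 and 0.33 in edgeR. That term rests on gESC_3d replicate C alone. It also moved uncalled stems, c24910_g1 from -0.16 to -0.95 and c6568_g1 from 0.39 to 0.08. What part depth had was not tested. Days without food also differ between the gates. In the libraries of 3 days alone c24380_g1 and c21099_g1 were still called, and c8137_g1 gave -0.80 (edgeR adjusted p = 0.13). Without ISC_medium replicate C, c8137_g1 gave -0.76 (edgeR adjusted p = 0.087).

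The order of levels between the populations that hold these stems was tested at both starvation times against ISC_high; the comparisons share the ISC_high libraries and are therefore given side by side. In gESC_3d 3 of 8 stems differed from ISC_high, with 65.5% of all stems tested called, 35.8% higher and 29.8% lower, and 71.1% of those of at least 10 CPM, 27.3% higher and 43.7% lower. In gESC_10d 3 of 8 differed, with 64.2% of all stems called, 36% higher and 28.2% lower, and 72.3% of those of at least 10 CPM, 23.2% higher and 49.1% lower. In both the share of the 8 stems was below the background, which was not tested. Higher in gastrodermal cells was c22270_g1, at 1.03 after 3 days (SE 0.223, edgeR adjusted p = 0.00049) and 0.84 after 10 days (SE 0.222, edgeR adjusted p = 0.0027). Also higher was c21099_g1, at 0.96 (SE 0.172, edgeR adjusted p = 7.7e-05) and 0.92 (SE 0.172, edgeR adjusted p = 0.00012). Lower was c24380_g1, at -0.93 (SE 0.286, edgeR adjusted p = 0.0079) and -0.86 (SE 0.283, edgeR adjusted p = 0.013). The other 5 stems lay between -0.03 and 0.41 after 3 days and between -0.17 and 0.18 after 10 days, with c23418_g1 nearest to the threshold after 3 days at 0.41 (edgeR adjusted p = 0.051). For those 5 the order of gastrodermal and high-gate interstitial levels was not called in this fit, and after 3 days it depends on the setting. Higher in gESC_3d were also c6568_g1 and c23418_g1 under median-of-ratios factors (edgeR adjusted p = 0.038 and 0.011), under DESeq2 (adjusted p = 0.023 and 0.0074) and with only the groups compared (edgeR adjusted p = 0.03 and 0.026). The last setting also called c8137_g1 (edgeR adjusted p = 0.023), and library size alone called c24910_g1 lower, at -0.48 (edgeR adjusted p = 0.049). The 10-day comparison lies within the deeper class and gave the same 3 calls under every scaling, filter and left-out library tried.

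Contig usage within a stem was not used by the rule, which summed contigs. Of the 8 stems, 5 hold a single contig, and 3 were tested for a different division among contigs in gESC_3d and ISC_high with edgeR's diffSpliceDGE. The test called 1 of these 3, c23418_g1 (edgeR adjusted p = 0.0028), with 28.9% of the 5929 stems tested called and 39.3% of those of at least 10 CPM. Its contig c23418_g1_i01 held 11.6%, 8.09% and 7.68% of the stem's counts in gESC_3d and 2.38%, 4.44%, 5.87% and 2.62% in ISC_high, without overlap. In gESC_10d the shares were 10.0%, 12.6% and 10.2%, and in ISC_medium 7.17%, 14.5% and 8.53%. With depth class as a term the difference was not called (edgeR adjusted p = 0.12).

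The low epidermal level of c23418_g1 lay almost wholly in its contig c23418_g1_i02. That contig measured 10.5 ± 2.54 CPM (SD, n = 3) in eESC_3d and 11.0 ± 1.10 (n = 4) in eESC_10d, against 67.7 ± 5.71 (n = 3) in gESC_3d, 56.2 ± 6.79 (n = 3) in gESC_10d, 72.5 ± 17.5 (n = 4) in ISC_high and 45.7 ± 10.7 (n = 3) in ISC_medium. Contig c23418_g1_i01 measured 4.44 ± 1.22 CPM (n = 3) in eESC_3d and 4.34 ± 0.455 (n = 4) in eESC_10d, more than the 2.70 ± 0.676 (n = 4) of ISC_high and less than the 6.79 ± 1.46 (n = 3) of gESC_3d. Its share of the stem was higher in every epidermal library than in any other sorted library, at 24.8%, 24.0% and 41.9% in eESC_3d and 31.7%, 25.6%, 25.3% and 31.0% in eESC_10d. The unsorted libraries held 25.6% in the actin line and 9.76% in the cnnos1 line. Because the rule used the epidermal levels of the stem, this difference was not tested. Reads that match contigs of one stem can be divided between them by the authors' counting, so single-contig values are less certain than their sum.

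**Figure D4:**
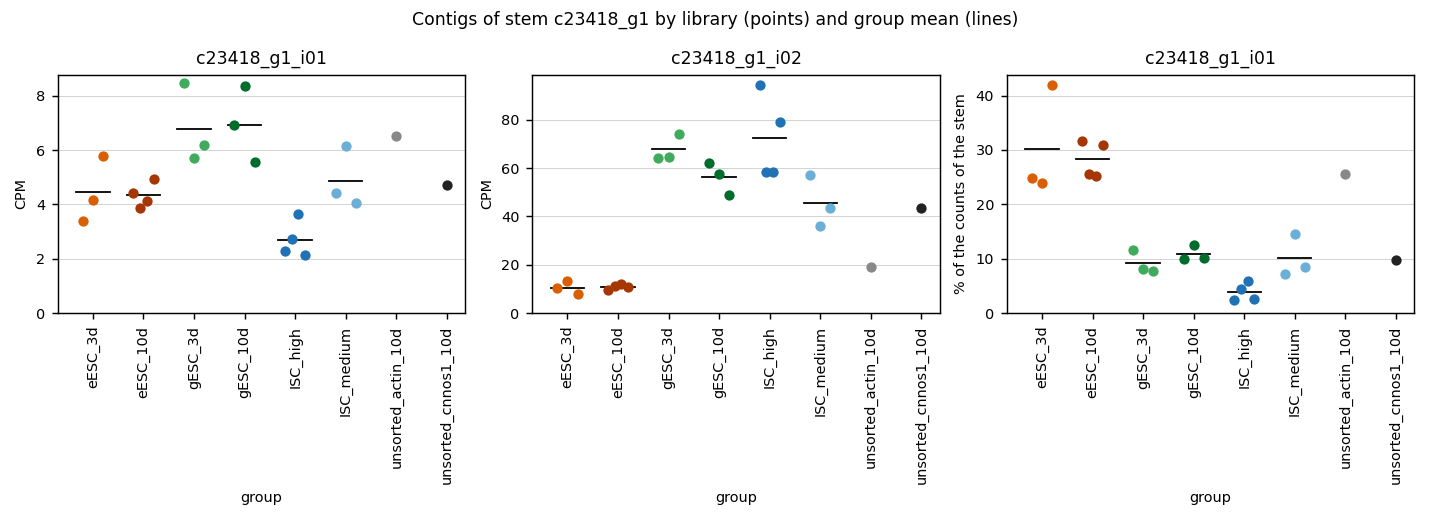
CPM of contigs c23418_g1_i01 and c23418_g1_i02 and the share of the stem's counts held by c23418_g1_i01, by group; points are libraries and lines group means. The epidermal points are far below the other sorted points for c23418_g1_i02 but lie among them for c23418_g1_i01, whose share is higher in the 7 epidermal libraries than in the 13 other sorted ones.

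The other multi-contig stems did not pass the test, with edgeR adjusted p = 0.12 for c21099_g1 and 0.84 for c24380_g1. In c21099_g1 the contig c21099_g1_i01 held 22.0 ± 2.49% of the counts (SD, n = 3) in gESC_3d and 14.6 ± 3.68% (n = 4) in ISC_high, and both of its contigs were low in the epidermis, c21099_g1_i01 at 1.02 ± 0.330 CPM (n = 3) and c21099_g1_i02 at 6.60 ± 3.10 CPM (n = 3) in eESC_3d. The division of c24380_g1 among its 4 contigs was unstable between replicates: c24380_g1_i01 ranged from 0 to 18.2% of the counts within gESC_3d, and c24380_g1_i02 was at 0 in all 3 libraries of gESC_10d but at 3.63 ± 1.01 CPM (n = 3) in gESC_3d. Only its sum is used here.

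The unsorted body column libraries were not used by the rule and have no replicates. All 8 stems were higher in both of them than in any sorted epidermal library and lower than in any gESC_10d library. Unsorted tissue mixes the populations whose levels chose the stems, so a level between them follows in part from the choice. The share of all stems with such levels was not counted. In the actin line the level was 19.0% to 61.7% of the gESC_10d mean, and in the cnnos1 line 32.1% to 76.4%. The largest difference between the lines was in c24380_g1, at 2.72 CPM in the actin line, with a 95% Wilson interval of 2.01 to 3.67, and at 7.52 CPM (6.21 to 9.10) in the other line, a ratio of 2.77. Stem c23418_g1 held 25.6 CPM (23.2 to 28.2) and 48.4 CPM (44.9 to 52.2), a ratio of 1.89. In c24910_g1, by contrast, both lines held 13.8 CPM. Intervals cover counting error only, and with 1 library per line the differences were not tested between lines. The label of the cnnos1 library names gastrodermal cells as those that carry eGFP, which differs from the sorted libraries of that line.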

How the data were processed

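The authors deposited a table of whole-number counts per assembled contig for 22 libraries of polyadenylated RNA, from directional libraries per the labels. Cutadapt 1.11, Salmon 0.7.2 and DESeq2 are named in the submitters' processing notes, without roles, so the deposited counts may be rounded estimates, and the transcriptome build is not given in the sources used here. A second deposited table held the same counts times 1 factor per library for 26024 contigs (largest relative deviation 6.3e-11) and was not used. Counts were summed per stem and tested with edgeR 4.0.16 (R 4.3.3; quasi-likelihood F test, TMM factors 0.787 to 1.23, filterByExpr with a minimum count of 10, 18288 stems, 1 mean per sorted group over 20 libraries, Benjamini-Hochberg adjusted p under 0.05). The filter kept at least 99.7% of each library's counts, and all 8 stems passed it. DESeq2 1.42.0 was an alternative, as were other scalings, no filter, depth class and replicate letter as terms, the groups compared alone, and single libraries left out. Replicates differed by more than sampling noise (chi-square per degree of freedom 19.8 to 224). Same-letter libraries of gESC_10d and ISC_high deviated together (correlations 0.28, 0.14 and 0.42), a pairing seen only in the data. On simulated counts for gESC_10d against gESC_3d, over 16710 stems, edgeR called 0.0424% of unchanged stems. For contig usage, over 5534 stems, 95.5% of those with exchanged contigs and 0.825% of unchanged ones were called. The stems and lists were chosen with earlier results of these data known. All 8 stems are named; by the naming rule these are the stems of highest ratio. Intervals are 95% Wilson intervals of counting error.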

Additional observations from a re-analysis of the deposited data

Results flagged for a closer look

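Stem c22270_g1 measured 7.04 CPM in eESC_10d replicate C, away from the other 3 libraries of that group at 3.48 to 3.82 CPM, a gap of 0.904 of the group's range, above Dixon's 95% critical value for 4 samples. The 150 gastrodermal stems summed to 5677 CPM in the same library, a gap of 0.990 of the range. For the chosen stems 16 groups of 4 values were examined, which share libraries, and chance would mark about 1 in 20. The sum over the 150 gastrodermal stems was examined besides these. The log2 starvation change of c21099_g1 in gastrodermal cells minus that in epidermal cells was -1.49, a called difference between the layers.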

How the results depend on the processing

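The calls of the 8 stems depended on the setting as follows. Between gESC_3d and ISC_high 3 stems were called, and 5 with median-of-ratios factors, 5 with DESeq2 and 6 with only the groups compared in the fit. For the difference of starvation changes 1 was called, and 4 with DESeq2 but 0 with library size alone, with no filter, with the replicate block, with depth class as a term and with only the groups compared. Between the interstitial gates 3 were called, 5 with library size alone and 0 with depth class as a term, which also gave 0 in place of 7 for the epidermal change and 0 in place of 1 for contig usage. For the epidermal change 6 were called with median-of-ratios factors, no filter and only the groups compared. Contig usage with gESC_10d in place of gESC_3d called 2 stems, c23418_g1 and c24380_g1. Group medians in place of means kept 5 of the 8 stems. The cause of these differences was not tested.

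Leaving out 1 library at a time gave 2 to 7 calls for the epidermal change, 0 to 1 for the difference of changes, 0 to 0 for the gastrodermal change, 2 to 3 between the gates, 3 to 4 for gESC_3d and 3 to 3 for gESC_10d against ISC_high, and 1 to 1 for contig usage. It kept 5 to 8 of the chosen stems, 5 without ISC_medium replicate B. Without eESC_10d replicate C all 8 were kept and 15 stems met the rule.

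With the replicate letter as a replicate block the counts were 0 for the gastrodermal and 6 for the epidermal change, 0 for their difference, 3 between the gates, 4 for gESC_3d and 3 for gESC_10d against ISC_high, and 1 for contig usage. Libraries that share a letter deviated together between gESC_10d and ISC_high, and weakly between ISC_medium and ISC_high (correlations 0.17, 0.031 and 0.19). In the other comparisons the correlations had both signs, from -0.53 to 0.43. The block is therefore a hint from the data and not the design. Between the gates, letter A joins an ISC_high library of 2 days with an ISC_medium library of 5 days.

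No called stem changed direction under any setting. Uncalled log2 fold changes near 0 did change sign. Library size alone gave 0.11 for c24910_g1, 0.15 for c21099_g1 and 0.0085 for c22270_g1 in the gastrodermal change and 0.037 for c23418_g1 in the epidermal change. It gave -0.00012 for c6568_g1 and -0.36 for c44746_g1 between the gates, -0.043, -0.32, -0.023 and -0.0089 for c6568_g1, c44746_g1, c8137_g1 and c23418_g1 in gESC_3d, and -0.042 and -0.031 for c44746_g1 and c8137_g1 in gESC_10d, both against ISC_high. Median-of-ratios factors gave 0.079 for c24910_g1 in gESC_3d and 0.068 and 0.087 for c6568_g1 and c23418_g1 in gESC_10d, and DESeq2 gave 0.078, 0.068 and 0.087. No filter gave 0.0016 for c21099_g1 in the gastrodermal change, -0.021 for c44746_g1 between the gates, and 0.026 and 0.039 for c6568_g1 and c23418_g1 in gESC_10d, where the replicate block gave 0.00077 for c23418_g1. Depth class as a term gave 0.43 for c24910_g1 and -0.33 for c44746_g1 in the gastrodermal change. Only the groups compared gave 0.052 and 0.049 for c24910_g1 and c23418_g1 between the gates, 0.012 for c24910_g1 in gESC_3d, and 0.10 and 0.12 for c6568_g1 and c23418_g1 in gESC_10d. With single libraries left out, signs changed within -0.043 to 0.39 for c44746_g1, -0.37 to 0.041 for c24910_g1 and -0.11 to 0.046 for c21099_g1 in the gastrodermal change, -0.20 to 0.21 for c24910_g1 and -0.21 to 0.23 for c44746_g1 in gESC_3d, -0.16 to 0.13 for c6568_g1 and -0.16 to 0.17 for c23418_g1 in gESC_10d, and -0.16 to 0.15 for c44746_g1 between the gates. Library size alone moved the median of all stems to 0.24 in the gastrodermal and 0.34 in the epidermal change, -0.43 between the gates and -0.32 for gESC_3d against ISC_high.

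Depth limits the lowest values, since 3 counts in an epidermal library amount to 0.0985 to 0.175 CPM and c24380_g1 reached that level in eESC_3d.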

Other observations

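Beyond the stems that were low only in the epidermis, the 78 stems that were high only in interstitial cells also had counts in the epidermal libraries, with at most 1 of the 78 at 0 counts in any of them. Their summed level in eESC_3d was 1412 to 2057 CPM and in eESC_10d 2449 to 3057 CPM. It was 1483 to 1555 CPM in gESC_3d and 1133 to 1602 CPM in gESC_10d, so such a level is not particular to the epidermal libraries. A second stem just outside the level limit was c17646_g1, with a smallest mean of 7.26 CPM and a ratio of 3.32.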
